A study of Homo sapiens with 20 samples.

Results

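The 10 genes described here were listed by symbol, by a rule that used no measured value: the EMT transcription factors SNAI1, SNAI2, ZEB1, ZEB2, TWIST1 and TWIST2, the epithelial splicing regulators ESRP1 and ESRP2, and the epithelial transcription factors GRHL2 and OVOL2. Of these, 9 were among the 26038 genes of the count table, and 5 had enough counts to be tested (SNAI1, SNAI2, ZEB1, ZEB2 and ESRP2). TWIST1 was not analysed here. In RefSeq (GRCh38.p14) SNAI1 spans chr20:49982980-49988886, ZEB1 chr10:31318417-31529804, ZEB2 chr2:144384081-144520119 and ESRP2 chr16:68229033-68236127, and SNAI2 lies on chromosome 8. Counts are over whole genes. The study measured polyA RNA in 20 libraries of MHCC-97H, a human hepatocellular carcinoma cell line, to ask how sublethal heat, used as a model of incomplete microwave ablation, changes the cells. Each of its 4 groups had 5 libraries. The R-47 group was wild type and spent 15 min in a water bath at 47 °C. Its comparison group R-37, also wild type, spent 15 min at 37 °C. The NFS1 group is labelled as a knockdown of NFS1, the mitochondrial cysteine desulfurase that supplies sulfur for iron-sulfur clusters, made with shRNA and put in the 47 °C bath. The NC group is labelled wild type and had the same 47 °C bath. Cells of all 4 groups then stayed 24 h in an incubator. The labels do not say whether the knockdown is 1 clone or whether NC carries a control shRNA. They also do not call the 5 libraries of a group separate cultures, so p-values rest on the scatter among libraries, part or all of which may be technical.

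In epithelial-mesenchymal transition (EMT), cells loosen their junctions and take on a migratory form. SNAI and ZEB zinc finger proteins bind E-box DNA motifs and repress epithelial genes such as CDH1, which encodes E-cadherin, and TWIST proteins are basic helix-loop-helix factors that act in the same programme. GRHL2 and OVOL2 hold epithelial identity in part by repressing ZEB1, ESRP1 and ESRP2 are RNA-binding proteins that set epithelial exon choices, and the miR-200 family of microRNAs lowers ZEB1 and ZEB2 messages.

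ZEB1 and ZEB2 messages are known targets of miR-200 microRNAs, and E-boxes are the motifs that the SNAI and ZEB proteins bind, so the letters of both are shown. RefSeq held mature sequences (GRCh38.p14) for the pair of miR-200 family members on chromosome 12, hsa-miR-200c-3p at chr12:6963742-6963764 and hsa-miR-141-3p at chr12:6964155-6964176, both on the plus strand. Capitals mark the seed, bases 2 to 8.
hsa-miR-200c-3p: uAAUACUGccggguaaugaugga
hsa-miR-141-3p: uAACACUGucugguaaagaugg
These seeds, AAUACUG and AACACUG, are not the same, so the microRNAs fall into separate seed groups. The microRNAs themselves were not measured in polyA RNA. Their host transcript MIR200CHG lay below the count filter, with a mean of 0.322 ± 0.342 FPKM in R-47 and 0.123 ± 0.115 FPKM in R-37, and of 0.336 ± 0.443 FPKM in NFS1 and 0.440 ± 0.106 FPKM in NC (SD, n = 5 each). FPKM is the count scaled to gene length and to the library total, as deposited.

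RefSeq promoter windows were found for 3 of the members, ZEB1 (7 starts), ZEB2 (1 start) and TWIST2 (1 start), and are shown for the ZEB genes as the 250 bases before a start. The ZEB1 start is the one with the most matches to the E-box CACCTG, which reads CAGGTG on the other strand. It spans chr10:31318966-31319215 on the plus strand, with capitals on the matches at -242 and -85 from the start. The ZEB2 window, chr2:144520120-144520369 on the minus strand, has no match.
ZEB1: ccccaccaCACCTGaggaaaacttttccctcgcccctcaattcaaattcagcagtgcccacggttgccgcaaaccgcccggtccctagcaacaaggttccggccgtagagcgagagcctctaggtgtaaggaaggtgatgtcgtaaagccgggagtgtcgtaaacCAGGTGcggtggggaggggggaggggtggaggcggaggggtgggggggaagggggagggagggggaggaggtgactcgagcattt
ZEB2: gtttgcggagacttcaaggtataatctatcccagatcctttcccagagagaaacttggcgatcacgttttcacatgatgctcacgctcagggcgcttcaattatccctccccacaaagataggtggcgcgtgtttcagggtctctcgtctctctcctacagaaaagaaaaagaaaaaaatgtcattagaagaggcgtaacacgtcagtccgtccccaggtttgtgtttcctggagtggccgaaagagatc
CACCTG in either direction was present in 2 of 7 windows of ZEB1 that run to 50 bases past the start, and in 20.6% of 35116 such RefSeq windows. The E-box CACGTG, a palindrome, was in none of the 7 and in 7.26% of all windows, and the heat shock pair GAANNTTC or TTCNNGAA, also searched on both strands, was in none of the 7 and in 13.5% of all windows. A match is a run of letters and was not tested as a binding site.

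Depth was 35431078 to 39094039 counts per library in R-47, 32219946 to 39689939 in R-37, 35426499 to 36253443 in NFS1 and 35732485 to 36744075 in NC. The first principal component held 77.7% of the variance and separated R-47 and R-37 from NFS1 and NC, so the experiments were compared within themselves first. Libraries NFS1-4 and R-37-5 stood apart from their groups, each with a median correlation of 0.987 to the others of its group. Without R-37-5, R-47 against R-37 gave ESRP2 at 0.40 (adjusted p = 9.03e-05), ZEB1 at -0.27 (adjusted p = 0.0176) and SNAI2 at 0.41 (adjusted p = 0.0481) on the log2 scale. CPM is the count per 1000000 counts of the library after trimmed-mean (TMM) scaling. The labelled target was checked first: NFS1 RNA averaged 72.8 ± 2.66 CPM in the libraries labelled NFS1 knockdown and 78.7 ± 1.86 CPM in NC (SD, n = 5 each), a log2 fold change of -0.11 ± 0.05 (SE) that did not pass (edgeR quasi-likelihood, adjusted p = 0.114). Of the 10 liver markers, ALB was at 2.11 FPKM in R-47, 5.52 in R-37, 0.304 in NFS1 and 0.400 in NC. GPC3 drew 1 count over the libraries of R-47, 0 over R-37, 0 over NFS1 and 1 over NC. SERPINA1 was at 0.611, 1.42, 0.173 and 0.253 FPKM, TF at 0.698, 1.54, 0.294 and 0.546 FPKM, and APOB at 0.228, 0.409, 0.363 and 0.518 FPKM in the same groups. HNF4A was at 7.09, 5.52, 10.1 and 14 FPKM, and FGB at 10.8, 12.9, 31.7 and 29.7 FPKM. Among markers of other cells, the leukocyte list summed to 84.9 to 109 FPKM in R-47, 42.7 to 47.9 in R-37, 86.2 to 96.6 in NFS1 and 74.6 to 81.5 in NC, nearly all of it CD68, while its defining gene PTPRC stayed under 0.02 FPKM on average in every group and CD3E was at 0 in R-47, NFS1 and NC. The fibroblast list summed to 6.28 to 7.56 FPKM in R-47, 6.29 to 9.41 in R-37, 13.0 to 22.3 in NFS1 and 8.36 to 10.4 in NC, mostly LUM. The endothelial list summed to 9.56 to 10.8 FPKM in R-47, 8.69 to 10.4 in R-37, 9.44 to 10.3 in NFS1 and 9.80 to 12.0 in NC. Nearly all of it was PECAM1 and KDR, which were counted in every group. PECAM1 was the larger part in R-47 and R-37, and KDR in NFS1 and NC. CDH5, of the same list, was at 0 in R-47, NFS1 and NC. The cholangiocyte list, led by SPP1 and, in R-47 and R-37, by KRT19, summed to 414 to 447 FPKM in R-47, 400 to 455 in R-37, 126 to 154 in NFS1 and 124 to 158 in NC. The part of these markers in the results was not tested.

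ESRP2 was well counted while its paralogue ESRP1 and the epithelial factors GRHL2 and OVOL2 were close to uncounted, as was TWIST2. ESRP2 (chromosome 16) drew 32124 counts over the 20 libraries, and ESRP1 drew 2, 1 in an NFS1 library and 1 in an NC library. OVOL2 drew 3, with 1 count in each of 3 libraries of R-47 and R-37, and TWIST2 drew 3, with 1 count in each of 3 libraries. GRHL2 had 31 counts in 14 libraries.

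By library, GRHL2 gave 0, 0, 4, 1 and 0 counts in R-47 and 1, 0, 0, 1 and 0 in R-37. In the other experiment it gave 2, 5, 2, 1 and 4 counts in NFS1 and 5, 1, 1, 2 and 1 in NC. The groups overlapped, and an exact two-sided permutation test over the 252 splits of log2 CPM gave a difference of 0.26 and p = 0.429 for NFS1 against NC, where the smallest p that the design allows is 0.00794. ESRP1 was at 0 in R-47 and R-37, which allows at most 0.00404 and 0.0041 FPKM (3 counts over the group). OVOL2 was at 0 in NFS1 and NC, which allows at most 0.00882 and 0.00874 FPKM. These floors cover counting error only.

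**Figure D1:**
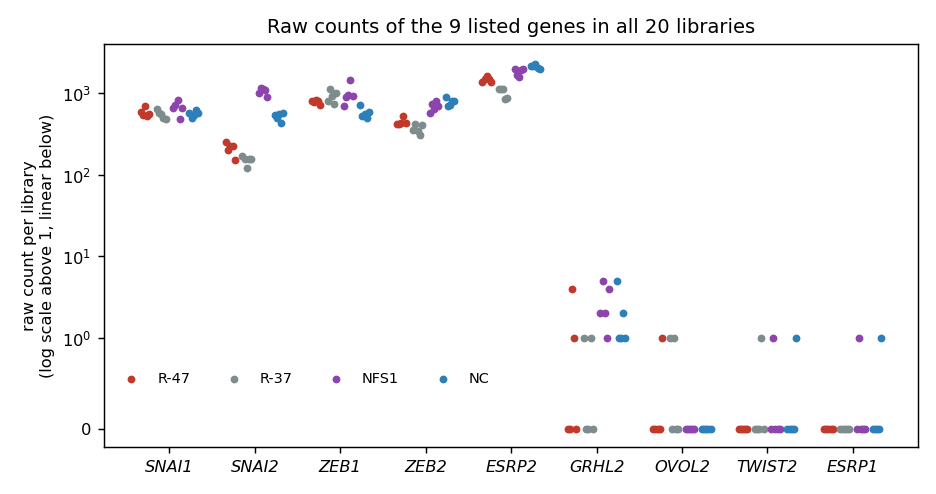
Raw counts of the 9 listed genes (log axis above 1, linear below) in each of the 20 libraries, coloured by group. SNAI1, SNAI2, ZEB1, ZEB2 and ESRP2 lie above 100 counts in every library, and GRHL2, OVOL2, TWIST2 and ESRP1 at 5 or fewer.

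Other members of the same families were also counted. SNAI3, OVOL1 and GRHL3 had 8 or fewer counts per library. GRHL1 had more, and averaged 0.574 FPKM in R-47, 0.570 in R-37, 0.788 in NFS1 and 0.562 in NC. RBM47, an RNA-binding protein that also supports epithelial splicing, was well above these at 13.2, 13.3, 19.3 and 19.7 FPKM in the same groups.

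Per length, the tested members ranked SNAI1, ESRP2, SNAI2, ZEB1 and ZEB2 in R-47, at 9.02 ± 0.886, 5.65 ± 0.336, 2.56 ± 0.383, 2.54 ± 0.0421 and 1.27 ± 0.146 FPKM (SD, n = 5), where SNAI2 and ZEB1 were closer than their spread. R-37 gave SNAI1 at 8.68 ± 0.635, ESRP2 at 3.99 ± 0.255, ZEB1 at 3.02 ± 0.436, SNAI2 at 1.87 ± 0.294 and ZEB2 at 1.07 ± 0.115 FPKM. NFS1 libraries put SNAI2 first at 13.5 ± 1.31 FPKM, before SNAI1 at 10.9 ± 2.09, ESRP2 at 7.37 ± 0.691, ZEB1 at 3.31 ± 0.943 and ZEB2 at 2.07 ± 0.258. NC put SNAI1 at 9.05 ± 0.843 and ESRP2 at 8.43 ± 0.455, within their spread of each other, then SNAI2 at 6.54 ± 0.720, ZEB2 at 2.32 ± 0.254 and ZEB1 at 1.95 ± 0.314.

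**Figure D2:**
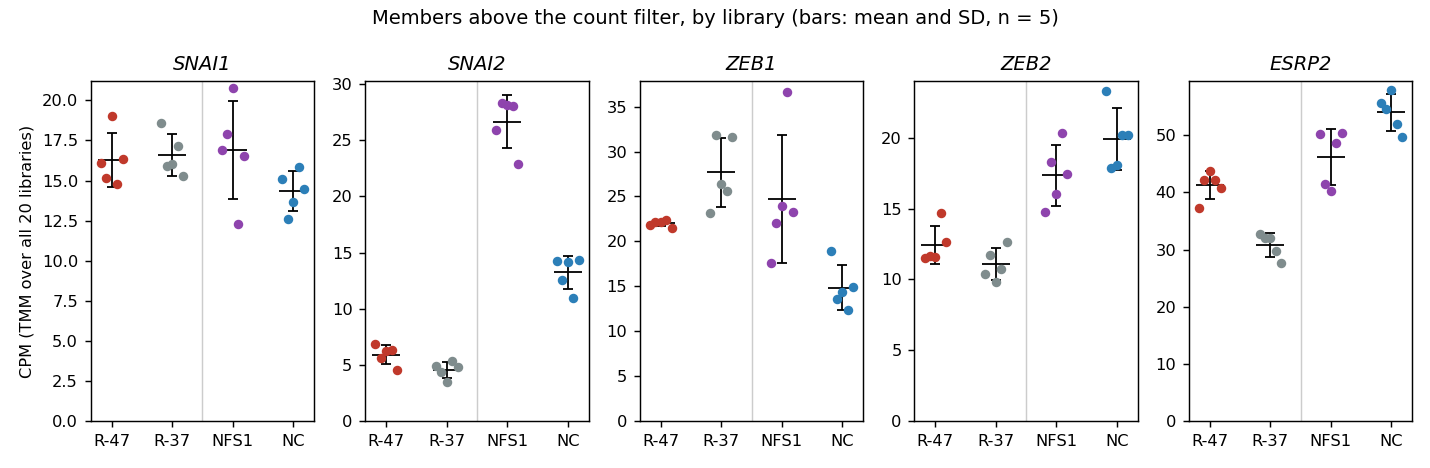
CPM of the 5 tested members (y axes start at 0), 1 point per library, with mean and SD bars (n = 5). ESRP2 in R-47 and SNAI2 in NFS1 lie wholly above their comparison groups R-37 and NC, and ZEB1 in R-47 lies wholly below R-37.

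For the bath temperature (R-47 against R-37), ESRP2 was higher (1.34-fold) and ZEB1 lower (0.797-fold) after 47 °C, and SNAI1, SNAI2 and ZEB2 did not pass. Calls are edgeR quasi-likelihood tests with Benjamini-Hochberg adjusted p under 0.05. Of 5 members tested, 2 were called, 1 higher and 1 lower, and the groups of both did not overlap. Over all 14344 genes tested, 25.1% were called (11.9% higher and 13.2% lower) and 18% had groups that did not overlap. With library size as the only scaling, the split of all genes was 2977 higher and 1013 lower, against 1714 higher and 1890 lower here. In bulk RNA, fewer cells of a type and less RNA per cell cannot be told apart.

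ESRP2 had 37.3, 42.1, 43.8, 42.2 and 40.8 CPM in R-47, against 32.7, 32, 32, 29.7 and 27.6 CPM in R-37. Every R-47 library was above every R-37 library. The mean was 41.2 ± 2.44 CPM in R-47 and 30.8 ± 2.13 CPM in R-37 (SD, n = 5 each), which is 0.43 ± 0.06 on the log2 scale (SE; 95% interval 0.29 to 0.56; edgeR, adjusted p = 0.000218). NFATC3, a calcium-regulated transcription factor whose gene overlaps ESRP2 on the other strand, went the other way, with a log2 fold change of -0.27 (adjusted p = 0.00349). The strand setting of the counting is not stated in the labels, so reads of the pair cannot be assigned beyond the authors' counts.

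ZEB1 had 21.9, 22.1, 22.2, 22.3 and 21.5 CPM in R-47, against 23.2, 31.8, 26.4, 25.5 and 31.6 CPM in R-37. R-47 libraries were close together and all lay below the lowest R-37 library, while R-37 libraries were spread. The difference was -0.33 ± 0.08 on the log2 scale (SE; 95% interval -0.50 to -0.15; edgeR, adjusted p = 0.00929), and the call was lost in the joint fit of all 20 libraries (adjusted p = 0.092) and on FPKM (adjusted p of 0.062, 0.063 and 0.135), over a range of 0.00153 to 0.135 in all alternatives. ZEB1-AS1, an antisense transcript beside the ZEB1 start, did not pass, at 0.28 (adjusted p = 0.16).

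SNAI2, which encodes SLUG, had 6.89, 5.59, 6.19, 6.35 and 4.56 CPM in R-47, against 4.91, 4.34, 3.47, 5.35 and 4.81 CPM in R-37. In 4 of 5 R-47 libraries it was above all R-37 libraries, and R-47-5 fell among them. The difference of 0.38 ± 0.14 on the log2 scale (SE; 95% interval 0.09 to 0.67) had an adjusted p of 0.0518 from edgeR, just outside the threshold, and it passed in 13 of 22 alternatives (adjusted p of 0.0128 to 0.119). SNAI1, encoding SNAIL, averaged 16.3 ± 1.67 CPM in R-47 and 16.6 ± 1.30 CPM in R-37, and ZEB2 averaged 12.4 ± 1.35 CPM in R-47 and 11.1 ± 1.13 CPM in R-37. Neither passed, with log2 fold changes of -0.02 (95% interval -0.19 to 0.15, adjusted p = 0.875) and 0.17 (95% interval -0.02 to 0.37, adjusted p = 0.177).

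**Figure D3:**
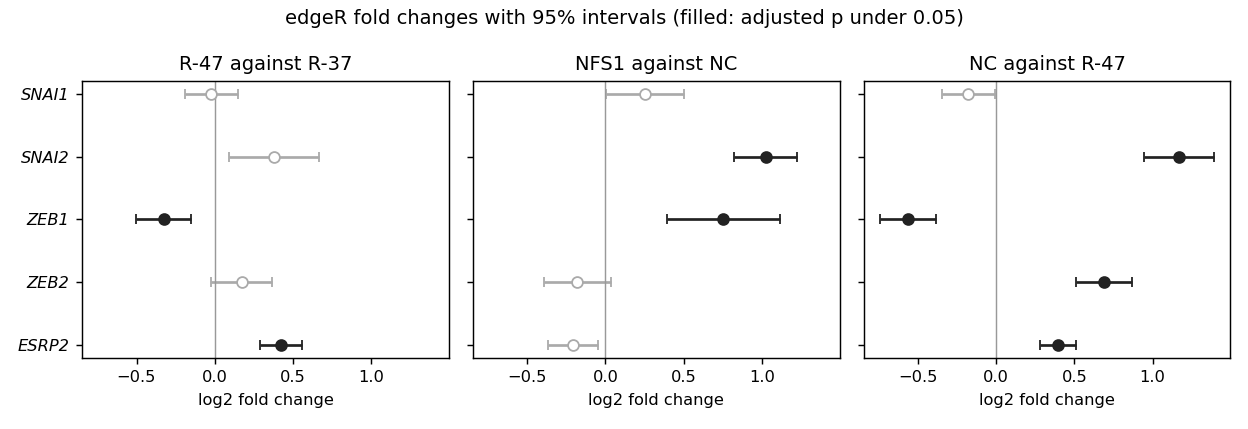
log2 fold changes of the tested members with 95% intervals in the 3 comparisons, filled where the adjusted p is under 0.05. R-47 against R-37 has ESRP2 at 0.43 and ZEB1 at -0.33, NFS1 against NC has SNAI2 at 1.03 and ZEB1 at 0.75, and NC against R-47 has SNAI2 at 1.17.

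CDH1, the repressed target of SNAI and ZEB factors, and VIM, an intermediate filament of mesenchymal cells, did not pass, with log2 fold changes of -0.08 (adjusted p = 0.408) and -0.04 (adjusted p = 0.766). In the list of epithelial genes bound or repressed by SNAI and ZEB factors, 7 of 28 tested were higher and 6 lower, with a median of -0.03 against -0.01 for all genes tested. SPINT1 (0.62) and ST14 (1.39), a protease inhibitor and the membrane protease matriptase, rose, and ERBB3 (-0.46), a receptor tyrosine kinase, and DSP (-0.21), which encodes desmoplakin, fell. The split was 9 higher and 2 lower under library size alone, and 4 higher and 11 lower with length and GC offsets. The mesenchymal list had 3 of 24 higher and 12 lower (median -0.20), with lower calls ahead also under library size alone (3 higher, 8 lower). FN1 (-0.78) and COL6A3 (-0.98), both matrix proteins, were among those that fell, and MMP14 (0.43), a matrix protease, and ITGB3 (1.20), an integrin subunit, rose. The liver marker list had 1 of 8 higher and 5 lower in the same comparison (median -0.69), and its part in these results was not tested.

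Among splicing regulators of these programmes, 1 of 23 tested rose and 8 fell (median -0.11), and lower calls were in the majority under the other scalings too (6 under DESeq2 size factors, 4 under library size alone and 6 with offsets, each with 1 higher). SRSF1, a general splicing factor, averaged 209 ± 16.3 CPM in R-47 and 341 ± 14.5 CPM in R-37 (SD, n = 5 each), a log2 fold change of -0.71 (edgeR, adjusted p = 2.66e-07). SRSF6 fell as well (-0.30), and HNRNPA1, which competes with SRSF1 at splice sites, rose (0.16). Genes whose exons ESRP proteins are known to control had 5 of 18 higher and 3 lower at the gene level (median 0.04), with SLC37A2 (1.16) among the higher and NUMB (-0.18) and OSBPL3 (-0.16) among the lower. Under library size alone the split was 6 higher and 0 lower. Exon inclusion was not measured here.

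Other EMT transcription factors had 0 of 12 higher and 3 lower (SOX9 at -0.35 and HMGA2 at -0.26 among them), a split that became 1 and 1 under library size alone and 2 higher and 4 lower with offsets. Other epithelial transcription factors had 3 of 15 in each direction (4 higher and 0 lower under library size alone), with KLF4 (0.30) and HNF4A (0.28) higher and FOXA1 (-0.18) and SPDEF (-0.31) lower. TGF-beta and BMP signalling genes had 4 of 34 in each direction (7 higher and 2 lower under library size alone), with TGFBI (0.24) and BAMBI (0.28) higher and LTBP1 (-0.48) and TGFBR2 (-0.37), a latent TGF-beta binding protein and a receptor, lower. Corepressors and chromatin partners had 2 of 27 higher (RING1 and AJUBA) and 3 lower, HDAC1 (-0.20) and HDAC2 (-0.22) among them, and under library size alone 3 were higher and 0 lower. Genes for turnover of the factors' proteins had 1 of 29 higher, GSK3A (0.20), and 7 lower, ATM (-0.37) and USP3 (-0.26) among them, which became 3 and 3 under library size alone and 3 higher and 8 lower with offsets.

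For the knockdown label at 47 °C (NFS1 against NC), SNAI2 doubled and ZEB1 was higher, and ZEB1 shared its rise with the other genes of chromosome 10. SNAI1, ZEB2 and ESRP2 did not pass. Of 5 members tested, 2 were called, both higher, and 1 had groups that did not overlap. Over all 15086 genes tested, 28.1% were called (15.7% higher and 12.5% lower) and 21% had groups that did not overlap. With length and GC offsets the split of all genes was 2267 higher and 3139 lower, against 2364 higher and 1881 lower here.

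SNAI2 had 25.9, 28.3, 28.2, 28 and 22.9 CPM in NFS1, against 14.3, 12.6, 14.1, 11 and 14.4 CPM in NC. All NFS1 libraries were above all NC libraries. The mean was 26.7 ± 2.35 CPM in NFS1 and 13.3 ± 1.48 CPM in NC (SD, n = 5 each), a 2.04-fold difference, or 1.03 ± 0.09 on the log2 scale (SE; 95% interval 0.83 to 1.23), with an adjusted p of 3.94e-06 from edgeR. The other genes of chromosome 8 had a median log2 fold change of 0.04. The 10 tested within 5 Mb of SNAI2 had a median of 0.35, with 5 higher and 1 lower.

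ZEB1 had 17.6, 22, 23.9, 36.6 and 23.2 CPM in NFS1, against 18.9, 13.6, 14.4, 12.4 and 14.9 CPM in NC. NFS1-4 was far above the rest of its group, NFS1-1 lay below NC-1, and the other 3 NFS1 libraries were above every NC library. On the log2 scale the difference was 0.75 ± 0.17 (SE; 95% interval 0.39 to 1.11), with an adjusted p of 0.00425 from edgeR, and it was 0.67 (adjusted p = 1.48e-05) without NFS1-4 and NC-1, a pair left out after seeing the data. Over all alternatives the value ran from 0.27 to 0.85 and its adjusted p from 1.48e-05 to 0.114.

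The other 567 tested genes of chromosome 10 had a median log2 fold change of 0.48, with 375 higher and 11 lower, against a median of 0.02 for all genes. The share of chromosome 10 genes called higher was 66.2%, and the next highest chromosome, 3, had 19%. Other chromosomes leaned lower, with 37.9% of tested genes called lower on X, 33.1% on 14 and 29.9% on 11. The share called lower over all genes was 12.5%. Within 5 Mb of ZEB1, 20 of 28 genes were higher and 0 lower, with a median of 0.38. Library by library, the chromosome 10 median relative to NC was 0.41, 0.45, 0.42, 0.51 and 0.45 in NFS1, while ZEB1 was 0.26, 0.58, 0.70, 1.32 and 0.66 in the same libraries. All 5 NFS1 libraries were high for the chromosome, and ZEB1 was below that median in NFS1-1 and above it in the other 4. When scaling and test used chromosome 10 genes alone (568 genes, a choice made after seeing the data), ZEB1 differed by 0.27 ± 0.14 on the log2 scale (SE; 95% interval -0.02 to 0.57), with an adjusted p of 0.114 from edgeR. In R-47 against R-37, the chromosome 10 median was -0.03 and the same restricted test kept ZEB1 lower, at -0.29 ± 0.07 (SE; adjusted p = 0.00686).

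**Figure D4:**
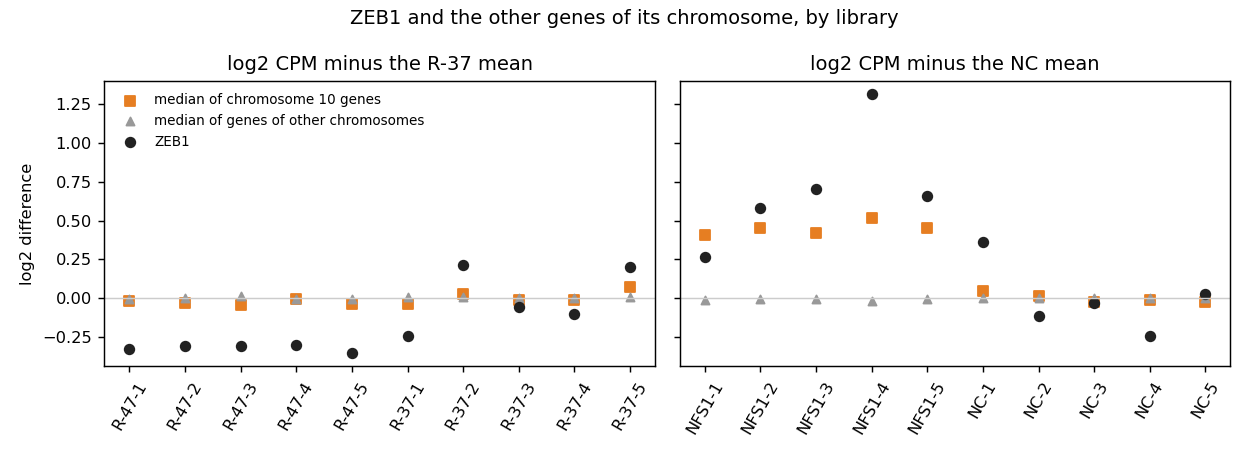
log2 CPM of ZEB1 (circles), the median of chromosome 10 genes (squares) and the median of genes on other chromosomes (triangles), each minus the R-37 mean (left) or the NC mean (right), by library. The chromosome 10 median is 0.41 to 0.51 in the NFS1 libraries and near 0 in the NC libraries, while ZEB1 in R-47 sits at -0.35 to -0.30 with the chromosome near 0.

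ESRP2 had 50.2, 41.4, 40.2, 48.7 and 50.4 CPM in NFS1, against 55.7, 54.5, 58.0, 52.0 and 49.8 CPM in NC. The groups overlapped at NC-5, and the difference of -0.21 ± 0.08 on the log2 scale (SE; 95% interval -0.37 to -0.05) had an adjusted p of 0.0534 from edgeR, which passed as lower in 10 of 23 alternatives (adjusted p of 0.0169 to 0.139). Its neighbour NFATC3 rose (0.26, adjusted p = 0.00398). SNAI1 averaged 16.9 ± 3.05 CPM in NFS1 and 14.3 ± 1.25 CPM in NC, with a log2 fold change of 0.25 (adjusted p = 0.12) that passed without NFS1-4 (0.35, adjusted p = 0.00462, with 0.0031 to 0.304 over all alternatives). ZEB2 averaged 17.4 ± 2.14 CPM in NFS1 and 19.9 ± 2.21 CPM in NC, with a log2 fold change of -0.18 (adjusted p = 0.197) that passed without NFS1-4 (-0.25, adjusted p = 0.0396, with 0.000265 to 0.405 over all alternatives).

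VIM averaged 180 ± 14.2 CPM in NFS1 and 235 ± 11.7 CPM in NC, a log2 fold change of -0.38 (edgeR, adjusted p = 0.000397). CDH1 did not pass, at 3.31 ± 0.663 CPM in NFS1 and 4.31 ± 0.741 CPM in NC (-0.38, adjusted p = 0.0983). The mesenchymal list had 12 of 24 higher and 1 lower, VIM, with a median of 0.24 against 0.02 for all genes. TNC (1.60), encoding tenascin-C, averaged 29 ± 2.24 CPM in NFS1 and 9.53 ± 0.516 CPM in NC (SD, n = 5 each), and COL6A3 (1.60) rose as well. Epithelial targets had 4 of 27 higher and 8 lower (median -0.20), and 4 higher and 14 lower with offsets. The tight junction genes CLDN1 (-1.23) and CGN (-0.43) fell, and DSP (0.40) and SPINT1 (1.31) rose. The liver marker list had 0 of 8 higher and 4 lower (median -0.49), and its part in these results was not tested.

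TGF-beta and BMP signalling had 16 of 35 higher and 1 lower, SMURF1 (-0.16), with a median of 0.22 (17 higher and 4 lower with offsets). BMP4, a secreted ligand, averaged 23.2 ± 1.39 CPM in NFS1 and 11.4 ± 1.04 CPM in NC (SD, n = 5 each), a log2 fold change of 1.02 (edgeR, adjusted p = 1.06e-06), and TGFBI (0.49) rose. Other EMT factors had 6 of 12 higher and 1 lower (6 and 2 with offsets), with RUNX2 (1.39) and SOX4 (0.45) up and TCF3 (-0.21) down. Other epithelial factors had 1 of 15 higher, TP63 (2.09, at 1.08 and 0.251 CPM in NFS1 and NC), and 4 lower, HNF4A (-0.50) and FOXA1 (-0.38) among them (2 higher and 4 lower under library size alone).

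Splicing regulators had 5 of 24 higher, SRSF1 (0.33) and RBFOX2 (0.20) among them, and 1 lower, MBNL3 (-1.18), a split that turned to 4 higher and 7 lower with offsets. ESRP-controlled genes had 5 of 18 higher, MAGI1 (0.81) and TCF7L2 (0.92) among them, and 3 lower, ARFGAP2 (-0.37) and LAS1L (-0.18) among them, and 4 higher and 7 lower with offsets. Corepressors had 6 of 27 higher and 4 lower (5 higher and 8 lower with offsets). The ZEB corepressor CTBP2 (0.79), on chromosome 10, and LOXL2 (0.67) rose, and PRMT5 (-0.38) and AJUBA (-0.55) fell. Turnover genes had 7 of 29 higher and 2 lower (5 higher and 4 lower with offsets). BTRC (0.83), a ubiquitin ligase adaptor that takes SNAI1 to degradation, and NOTCH1 (0.36) rose, and USP11 (-0.48) and GSK3A (-0.21) fell. Besides CTBP2, the chromosomes of the list genes named in this comparison are not given here. The part of chromosome 10 in the list counts was not tested.

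**Figure D5:**
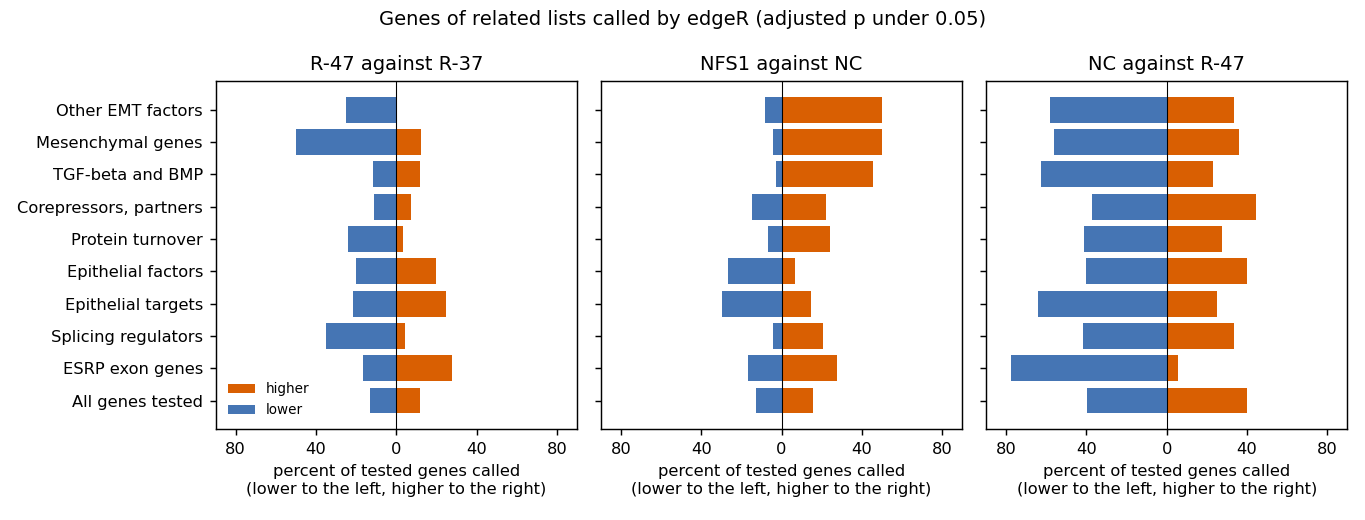
Percent of the tested genes of each list called higher (right of 0) and lower (left) in each comparison, with all genes tested in the bottom row. In R-47 against R-37, 12 of 24 mesenchymal genes are lower, and in NFS1 against NC, 12 of 24 are higher.

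The groups NC and R-47 carry the same genotype and treatment labels in different experiments, and 4 of 5 members differed between them. Of all 15080 genes tested, 79.7% were called (40.1% higher and 39.6% lower) and 67.3% had groups that did not overlap, so the members' share sits near that of any gene. Experiment and group cannot be told apart here. With library size as the only scaling, the median of all genes moved to 0.19, from 0.01, and the split of all genes was 7465 higher and 4740 lower.

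SNAI2 was higher in NC, at 13.3 ± 1.48 CPM in NC and 5.92 ± 0.886 CPM in R-47, a log2 fold change of 1.17 ± 0.11 (edgeR, adjusted p = 1.56e-09). ZEB2 was at 19.9 ± 2.21 CPM in NC and 12.4 ± 1.35 CPM in R-47 (0.69 ± 0.09, adjusted p = 2.13e-07), and ESRP2 at 54.0 ± 3.19 CPM in NC and 41.2 ± 2.44 CPM in R-47 (0.40 ± 0.06, adjusted p = 1.17e-06). ZEB1 was lower in NC, at 14.8 ± 2.48 CPM in NC and 22 ± 0.326 CPM in R-47 (-0.56 ± 0.09, adjusted p = 4.06e-06). In all 4 the libraries of the groups did not overlap. The other 572 chromosome 10 genes had a median of -0.45 (153 higher, 332 lower), and with that chromosome's genes alone ZEB1 was at -0.14 ± 0.08 (adjusted p = 0.114). Medians of other chromosomes also lay away from 0, at -0.48 on X, 0.57 on 14 and 0.38 on 3. SNAI1 did not pass (-0.18, adjusted p = 0.0512).

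The same contrast set VIM at 219 ± 9.78 CPM in NC and 10.4 ± 0.872 CPM in R-47, CDH1 at 4.03 ± 0.668 CPM in NC and 18.6 ± 0.803 CPM in R-47, and KRT19 at 0.802 ± 0.132 CPM in NC and 425 ± 18.6 CPM in R-47 (SD, n = 5 each). VIM and CDH1 therefore lay far apart between 2 groups with the same labels. Mesenchymal genes had 9 of 25 higher and 14 lower (median -0.66), with VIM (4.40) and LOX (4.43) up and FN1 (-3.47) and COL6A1 (-2.0) down. Epithelial targets had 7 of 28 higher and 18 lower (median -0.48), CLDN7 (2.16) and AP1M2 (0.79) up and KRT19 (-9.04) and SPINT1 (-5.62) down. ESRP-controlled genes had 1 of 18 higher, NUMB (0.33), and 14 lower (median -0.80), TCF7L2 (-1.45) and CD44 (-1.41) among them (3 higher and 13 lower under library size alone).

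Splicing regulators had 8 of 24 higher and 10 lower (median -0.08), a split that turned to 10 higher and 6 lower under library size alone and 11 higher and 9 lower with offsets. CLK1 (0.67) and RBM47 (0.40) rose, and HNRNPA1 (-0.63) and SRPK1 (-0.62) fell. Other EMT factors had 4 of 12 higher and 7 lower, with TCF4 (3.07) among those up and SOX4 (-1.40) and FOXQ1 (-1.22) among those down. Other epithelial factors had 6 of 15 in each direction, with FOXA3 (1.77) and HNF4A (0.81) up and EHF (-3.98) and SPDEF (-1.51) down. TGF-beta and BMP genes had 8 of 35 higher and 22 lower (11 and 19 under library size alone), with PMEPA1 (3.65) and TGFB3 (2.74) up and TGFBI (-1.77) and ID1 (-1.49) down. Corepressors had 12 of 27 higher and 10 lower (18 and 5 under library size alone, 18 and 6 with offsets), and turnover genes 8 of 29 higher and 12 lower (15 and 9 under library size alone, 12 and 12 with offsets). The turnover list holds PKD1, the symbol of polycystin-1, which was kept in these counts.

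Each tested member was set against 10522 genes by the root mean square difference of log2 CPM over the 20 libraries, each gene centred on its own mean. ZEB1 was closest to NHLRC2 (0.124), NSUN6 (0.137) and BTAF1 (0.138), all on chromosome 10. ESRP2 was closest to SMPD1 (0.0932), MYO1C (0.118) and DNAJC30 (0.118), and ZEB2 to TOGARAM1 (0.102), SLC22A5 (0.105) and TIGD7 (0.112). SNAI1 was closest to UBTF (0.118), VPS18 (0.127) and TTC38 (0.130). SNAI2 had larger distances, the nearest genes being HRH1 (0.320), EEF1A2 (0.353) and GPER1 (0.358). Its own SD over the libraries was also larger, at 1.04 on the log2 scale. That SD was 0.186 for SNAI1, 0.411 for ZEB1, 0.381 for ZEB2 and 0.320 for ESRP2. The distance was not scaled to this spread, so it does not rank the members by how well they are matched. The libraries are shared by all genes and fall into 2 experiments, so these are descriptions of likeness.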

How the data were processed

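PolyA RNA was sequenced from 20 libraries in 4 groups of 5. The tools HTSeq, HISAT2 and fastp and the build hg38 are named in the submitters' processing notes, while tool versions, gene annotation and the strand option were not given in the sources used here. Whole-number counts per gene symbol, and FPKM for the same genes, are as the authors deposited them. Groups came from the sample titles. The rule that listed the members used no measured value, but members and lists were chosen with earlier results of these data known. Each comparison was fitted on its 2 groups with edgeR 4.0.16 in R 4.3.3 (filterByExpr with a minimum count of 10, TMM, glmQLFit and glmQLFTest, Benjamini-Hochberg over all genes tested, threshold 0.05), and SE was the absolute log2 fold change over the square root of F. Named list genes are at most the 2 called of smallest adjusted p in each direction, besides CDH1, VIM, NFS1, cell type markers and the neighbours of members. CPM levels in members were scaled over all 20 libraries, those of other genes within the comparison. Alternatives used DESeq2 1.42.0, limma 3.58.1, other filters and scalings, log2(FPKM + 1) or log2(FPKM + 0.1), length and GC offsets, a replicate block and left-out libraries. The scripts were tested on simulated data. Chromosomes came from RefSeq (GRCh38.p14), or GENCODE where RefSeq had no match, for 24730 of 26038 symbols, and GC content from GENCODE transcripts. A floor covers counting error only.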

Additional observations from a re-analysis of the deposited data

How the results depend on the processing

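SNAI2 in NFS1 against NC, ESRP2 in R-47 against R-37, and SNAI2, ZEB2 and ESRP2 in NC against R-47 kept their direction and call in every alternative run. SNAI1 changed sign in R-47 against R-37 under library size alone (0.0556) and the FPKM settings (0.0475, 0.0522 and 0.0475), and among single left-out replicates it ran from -0.0822 to 0.0260, above 0 without R-37 replicate 1, R-47 replicate 2 or R-47 replicate 4. In NC against R-47 it changed sign under library size alone (0.00378) and the FPKM settings (0.00378, 0.00414 and 0.00378). Library size alone is also the scaling of FPKM. What made the sign of SNAI1 change was not tested.

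In R-47 against R-37 the members called higher numbered 1, but 2 under limma-voom, DESeq2, DESeq2 size factors, library size alone, all 20 libraries, a minimum count of 50 and both filtered FPKM settings, and 3 with length and GC offsets (1 to 2 without single replicates, with 2 when R-37-1, R-37-4, R-37-5 or R-47-5 was left out). Members called lower numbered 1, but 0 under all 20 libraries and the 3 FPKM settings and 2 with offsets (1 to 1 without single replicates). Genes called higher were 1714, but 2977 under library size alone and 2608 on unfiltered FPKM (1237 to 2158 without single replicates). Genes called lower were 1890, but 1013 under library size alone and 839, 841 and 827 on FPKM (1417 to 2176 without single replicates). In NFS1 against NC the members called lower numbered 0, but 1 under DESeq2 size factors, a minimum count of 50, DESeq2, all 20 libraries and without NC-1 and NFS1-4, and 2 with offsets (0 to 2 without single replicates, with 1 or 2 when NC-5, NFS1-1, NFS1-5 or NFS1-4 was left out). Members called higher numbered 2, but 3 with offsets and without NC-1 and NFS1-4 (2 to 3 without single replicates, with 3 when NFS1-4 was left out). Genes called lower were 1881, but 3139 with offsets (1500 to 2362), and genes called higher ranged from 1796 to 2775. In NC against R-47 the members called lower numbered 1, but 2 under no filter, with offsets and with a replicate block (1 to 2, with 2 when R-47-2, R-47-4, NC-1 or NC-4 was left out). Members called higher stayed at 3 (3 to 3). Genes called higher ranged from 5955 to 6101, and genes called lower were 5978, but 3741 and 3734 on filtered FPKM (5889 to 6100).

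Length and GC offsets brought SNAI1 (-0.18, adjusted p = 0.0359), SNAI2 (0.43, adjusted p = 0.0128) and ZEB2 (0.31, adjusted p = 0.00205) past the edgeR threshold in R-47 against R-37, and SNAI1 (0.32, adjusted p = 0.0106), ZEB2 (-0.38, adjusted p = 0.000265) and ESRP2 (-0.25, adjusted p = 0.0181) in NFS1 against NC. The same offsets made the 2 main calls of R-47 against R-37 smaller. ZEB1 went from -0.33 to -0.19 (edgeR, adjusted p = 0.0110) and ESRP2 from 0.43 to 0.33 (adjusted p = 1.06e-05). In NFS1 against NC, ZEB1 went from 0.75 to 0.55 (adjusted p = 0.000507) and SNAI2 from 1.03 to 0.98 (adjusted p = 2.59e-07). Gene GC content was 38.5% in ZEB1, 39.1% in ZEB2, 41.4% in SNAI2, 58.2% in SNAI1 and 59.6% in ESRP2.

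Same-numbered libraries showed little likeness, with correlations of -0.0664 to 0.0970 in R-47 against R-37 and of -0.198 to 0.0584 in NFS1 against NC. These values cannot show whether libraries were handled in pairs. With a replicate block, 1438 genes were higher and 1490 lower in R-47 against R-37, 1733 and 1335 in NFS1 against NC, and the members called lower in NC against R-47 became 2 by the addition of SNAI1 (-0.18, adjusted p = 0.0495).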
